A study of Mus musculus with 3 samples.

Results

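Ribosomal proteins are mostly encoded by single genes, but some have a second gene, a paralog, whose product can take the same place in the ribosome. Here the UMIs (unique molecular identifiers, 1 for each captured transcript) of 4 such pairs were followed across the cells of the adult mouse testis: Rpl10 and Rpl10l, Rpl39 and Rpl39l, Rpl22 and Rpl22l1, and Rps27 and Rps27l. The 8 genes were taken by symbol from the 31053 genes of the count table, and all 8 were found. The quantity followed was the paralog share, the UMIs of the paralog as a percent of the UMIs of its pair. In later spermatocytes of every library nearly all UMIs of the Rpl10 and Rpl39 pairs came from the paralog, and in macrophages, stromal cells and Leydig cells most came from the parent gene. In Sertoli-like cells, which also carried germ cell RNA, the paralog gave more UMIs of these pairs than the parent. The Rpl10l share there depended on how the cells were grouped. Within germ cells, up to later spermatocytes, the Rpl22 pair also moved toward its paralog and ended at a lower share. In stromal cells of KO the Rpl22 paralog gave most UMIs of the pair, while for WT and KI the counting interval held an even share. The Rps27 pair ran another course: its paralog share was highest in leptotene and zygotene cells and lower in later spermatocytes and spermatids.

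The study profiled testicular cells of WT, GRTH-KO (KO) and GRTH-KI (KI) mice by droplet single-cell RNA sequencing, to ask what the RNA helicase GRTH (DDX25) and its phosphorylated form do in spermatids. KO mice lack Ddx25, and KI mice carry a human GRTH with an arginine-to-histidine change whose product is not phosphorylated. The labels give C57BL/6 mice of 8 weeks in all groups and seminiferous tubule cells released with collagenase and trypsin, while the methods also allow older mice and pool the testes of a pair of mice in each group. Each genotype is 1 library of 7000 loaded cells, so no difference between genotypes could be tested, and every interval below covers counting error only.

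Rpl10, Rpl39 and Rpl22 encode proteins of the large ribosomal subunit and Rps27 one of the small subunit. Rpl10 joins the large subunit late in its assembly, Rpl39 is a very small protein at the wall of the exit tunnel, and Rpl22 lies at the surface of the subunit. Genes on the X chromosome are silenced at pachytene of male meiosis, when the sex chromosomes form the sex body, and many X-linked housekeeping genes have an autosomal copy that is active in male germ cells. Rpl10l and Rpl39l are such copies for Rpl10 and Rpl39. Rpl22l1 and Rps27l are expressed in many tissues, and both members of their pairs are autosomal.

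In the GENCODE annotation of GRCm38, Rpl10 (ENSMUSG00000008682) lies at chrX:74270812-74273135 on the plus strand with 7 exons, and Rpl10l (ENSMUSG00000060499) at chr12:66283379-66284401 on the minus strand with 1 exon. Rpl39 (ENSMUSG00000079641) lies at chrX:37082520-37085402 on the minus strand with 3 exons, and Rpl39l (ENSMUSG00000039209) at chr16:10170226-10174911 on the plus strand, also with 3. Rpl22 (ENSMUSG00000028936) lies at chr4:152325742-152334071 on the plus strand and Rpl22l1 (ENSMUSG00000039221) at chr3:28805436-28807424 on the plus strand. Rps27 (ENSMUSG00000090733) lies at chr3:90212522-90213651 on the minus strand and Rps27l (ENSMUSG00000036781) at chr9:66946086-66949516 on the plus strand, and these 4 genes have 4 exons each in the transcript used.

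The coding sequences were 84.8% identical in the Rpl10 pair, 85.3% in the Rpl39 pair, 66.9% in the Rpl22 pair and 76.1% in the Rps27 pair. The Rpl39 pair, which showed the most complete switch, is printed because it is short enough to read whole. Both coding sequences are 156 bases long, and capitals mark the 23 positions at which they differ. These lie near the start and in the later part, with a long identical stretch between them.
Rpl39: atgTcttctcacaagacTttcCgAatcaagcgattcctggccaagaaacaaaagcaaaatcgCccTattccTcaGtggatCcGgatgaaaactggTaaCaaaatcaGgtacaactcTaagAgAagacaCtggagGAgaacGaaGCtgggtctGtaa
Rpl39l: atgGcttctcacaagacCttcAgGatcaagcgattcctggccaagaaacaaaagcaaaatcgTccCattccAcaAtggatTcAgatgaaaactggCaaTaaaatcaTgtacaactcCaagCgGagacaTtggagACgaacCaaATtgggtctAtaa

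No stretch of 91 bases in the last 500 bases of a member's transcript was shared with its own partner, so a read of that length can tell the genes of a pair apart. Copies elsewhere in the genome matter more. All 410 such stretches of Rpl10 also occur in Rpl10-ps3, which the count table lists as a gene of its own, and 251 of 255 stretches of Rps27 also occur in Rps27rt, likewise listed. For Rpl22l1, 202 of 410 stretches occur in Gm15421, which is not in the count table. The other parents and paralogs shared between 0 and 19 stretches with any other gene. Reads of Rpl10 and Rps27 may therefore have been dropped or given to a copy, which would lower the parent and raise the paralog share of these pairs. Rpl10-ps3 had between 0 and 30.6 CPM (a gene's UMIs scaled to a common total) in any named class and Rps27rt between 0 and 45.6, and adding them to the parents moved none of the 30 shares of these pairs in LZ-like, SP-like, RS-like, ES-like and Sertoli-like cells by more than 0.60 percentage points. Reads that were dropped cannot be counted here.

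In the promoter window of each member (250 bases before to 50 after the start, RefSeq, GRCm38.p6), the MYB motif AACNGTT, which reads the same on both strands, was present in Rpl39l and in none of the other 7 members. The motif is in 4.45% of all 32851 promoter windows. Myb-family factors drive pachytene genes in the testis, which is why the stretch is shown. The letters TGACGTCA and TGACGTAA, motifs of the CREM family, were in the window of no member, against 1.79% and 0.499% of all windows. The 100 bases around the match, at chr16:10170018-10170117 on the plus strand, end 111 bases before the Rpl39l start, with the motif in capitals.
Rpl39l promoter: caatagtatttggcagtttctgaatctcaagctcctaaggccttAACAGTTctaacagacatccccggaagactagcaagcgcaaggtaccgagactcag

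The libraries held 82973909 UMIs for WT, 91388296 for KO and 73150373 for KI. After calling cells and keeping those with at least 500 genes, 5859 WT, 4056 KO and 1569 KI cells remained, with median UMIs per cell of 5134, 4013 and 11754. Ddx25 stood at 130 CPM in kept WT cells and at 0.280 CPM (14 UMIs) in KO cells, as the KO label has it, and at 145 and 8.39 CPM in empty barcodes of these libraries. Its 96.2 CPM in kept KI cells does not check the KI label, and whether these UMIs come from the human gene was not tested. Between 8 and 37 cell barcodes were shared by each pair of libraries, and leaving them out moved no paralog share by more than 1.6 percentage points. Cells fell into 16 clusters, called by marker genes LZ-like (leptotene and zygotene spermatocytes), SP-like (later spermatocytes), RS-like (round spermatids), ES-like (elongating spermatids), Sertoli-like, Macrophage-like, Stromal-like and Leydig-like, with 2 clusters unnamed. Of the SP-like class, cluster 2, with 1558 cells, split into an RS-like and an SP-like cluster in a finer clustering into 28. These finer clusters held 818 and 738 cells, so the SP-like class includes many cells that were named RS-like there. Cluster 4, an ES-like cluster, held 1122 WT cells, 1 KO cell and 1 KI cell. Barcodes without a cell also carried germ cell RNA, and the level and share in these empty barcodes are given below as the background of free RNA.

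The Rpl39 pair reached the highest paralog share. In LZ-like cells Rpl39l made up 80.6% of the pair for WT (95% interval 78.3 to 82.7, 1338 UMIs), 71.9% for KO (69.6 to 74.2, 1553 UMIs) and 72.0% for KI (69.8 to 74.0, 1816 UMIs). In SP-like cells it made up 99.9% for WT (30574 of 30591 UMIs), 99.8% for KO (36957 of 37050) and 99.9% for KI (35112 of 35136). The intervals of the classes did not overlap in any library.

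Both genes contributed to that change, the parent by far more. Rpl39 stood at 150 CPM in LZ-like WT cells, 222 in KO and 208 in KI, and at 0.716, 2.87 and 0.824 CPM in SP-like cells. On the log2(CPM + 1) scale the differences, SP-like minus LZ-like, were -6.46, -5.85 and -6.84. Rpl39l went from 622 to 1288 CPM for WT, from 569 to 1140 for KO and from 533 to 1206 for KI, which is 1.05, 1.0 and 1.18 on the log2 scale. In round spermatids Rpl39 had 0.494 CPM (5 UMIs) for WT, 5.32 (31 UMIs) for KO and 0.784 (4 UMIs) for KI, of which the KO level was above that of SP-like cells, and the Rpl39l share was 99.9%, 99.4% and 99.9%.

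The Rpl10 pair followed the same course from a lower level. Rpl10l made up 58.6% of the pair in LZ-like WT cells (52.4 to 64.7, 261 UMIs), 54.3% in KO (48.6 to 59.8, 317 UMIs) and 45.8% in KI (41.1 to 50.5, 448 UMIs). In SP-like cells the shares were 98.9% (2304 of 2329 UMIs), 98.1% (3107 of 3167) and 98.1% (3702 of 3775). The LZ-like shares depended on how the cells were grouped: without integration of the libraries the Rpl10l share there was 29.7% for WT, 34.8% for KO and 23.2% for KI, and the mean over single WT cells was 80%. Between the whole classes only the parent was past 2-fold on the CPM scale. Rpl10 went from 62.4 to 1.05 CPM for WT, from 73.9 to 1.85 for KO and from 99.1 to 2.51 for KI. Rpl10l was between 83.6 and 88.3 CPM in LZ-like cells and between 95.9 and 127 CPM in SP-like cells. The LZ-like level is an average over cells that differed in Rpl10l, as given below.

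Rpl10 was higher in round spermatids than in SP-like cells in all 3 libraries, and far lower than in LZ-like cells. RS-like cells had 5.33 CPM of Rpl10 for WT, 7.89 for KO and 9.99 for KI, and the Rpl10l share was 86.5% (82.8 to 89.7), 87% (83.1 to 90.4) and 89.3% (86.1 to 91.9). This share depended on how the cells were grouped. It was 94.3%, 92.7% and 93.8% for WT, KO and KI at the finer clustering. Without integration it was 93.6%, 91% and 93.8%, and with marker gates 83.3%, 80.7% and 82.2%. The 2 clusters of this class differed. In cluster 8 the level of Rpl10 was 3.04, 5.80 and 6.85 CPM, below that of empty barcodes, 3.64 CPM for WT, 7.61 for KO and 6.92 for KI, and the Rpl10l share was 92.3%, 90.7% and 92.9%. In cluster 1, made of cells low in UMIs (median 0.278 relative to the library), the level of Rpl10 was 21.9, 16.2 and 29.0 CPM, above empty barcodes, and the Rpl10l share was 46% (31.8 to 60.7, 23 of 50 UMIs), 70.8% (58.2 to 81.4) and 60.4% (46.0 to 73.5). In ES-like cells of WT the Rpl10l share was 88.5% over 113 UMIs and 45.9% with 10% free RNA subtracted. How much of the RS-like level was free RNA was not tested.

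**Figure D1:**
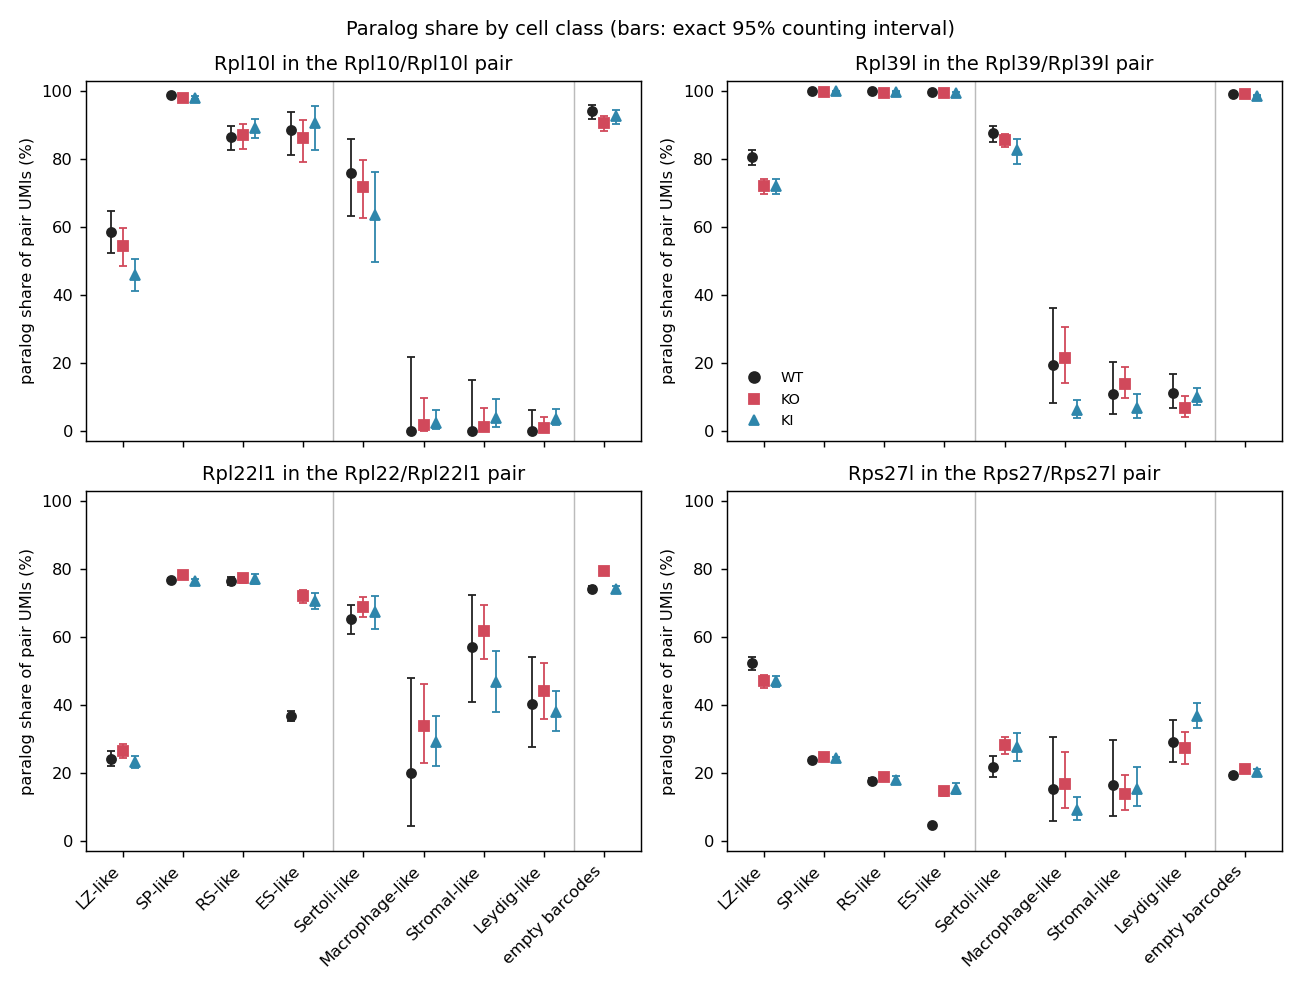
Paralog share of pair UMIs (percent, y axis) in each cell class and in empty barcodes (x axis) for WT (circles), KO (squares) and KI (triangles), with exact 95% counting intervals. Rpl10l and Rpl39l are near 100% in SP-like cells and under 25% in Macrophage-like, Stromal-like and Leydig-like cells, Rpl22l1 goes from 24.1% to 76.8% between LZ-like and SP-like cells of WT, and Rps27l is highest in LZ-like cells.

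The finer clustering placed spermatogonia apart from LZ-like cells. Cluster 26, SG-like, held 36 WT, 37 KO and 25 KI cells. Its Rpl10l share was 13.7% for WT (5.70 to 26.3), 12.3% for KO (5.47 to 22.8) and 8.50% for KI (4.60 to 14.1), and its Rpl39l share was 39.7% (31.6 to 48.3), 47.5% (40.8 to 54.3) and 41.3% (36.0 to 46.8). The level of Rpl39l in these cells was 215 CPM for WT, 309 for KO and 256 for KI, and that of Rpl10l was 26.9, 23.6 and 24.1 CPM. All lay below the empty barcodes of the same library, with 1219, 1396 and 1182 CPM of Rpl39l and 59.4, 73.8 and 86.1 CPM of Rpl10l, and the part of free RNA was not tested. The SG marker gate within the LZ-like cluster, with 29, 30 and 20 cells, gave Rpl10l shares of 15.6%, 14.0% and 7.55%. Taken over all cells the gate held 94, 135 and 61 cells, most of them in spermatocyte and spermatid clusters, and its values are not used for spermatogonia.

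In LZ-like cluster 19 the Rpl10l share was 69.5% for WT, 65.1% for KO and 65.1% for KI, and the Rpl39l share 85.4%, 76.0% and 78.9%. Cluster 9, unnamed but led by Cyp19a1 and by Piwil1, a piRNA factor of pachytene cells, had completed both changes: its Rpl10l share was 99%, 98.4% and 97.9%, and its Rpl39l share 100%, 99.8% and 99.9%. Its 180 WT cells held 5517 UMIs of Rpl39l and none of Rpl39.

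**Figure D2:**
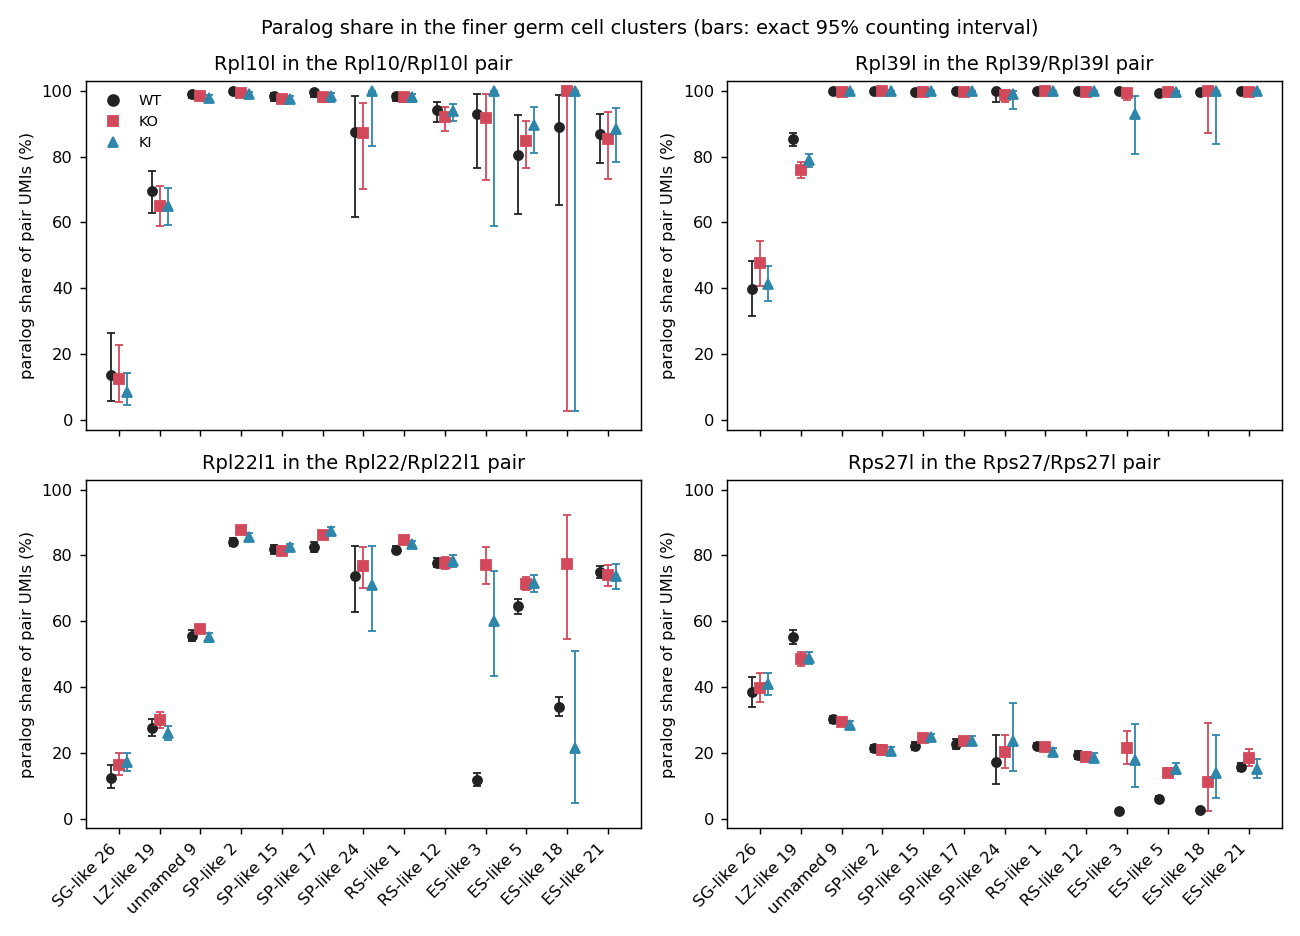
Paralog share of pair UMIs (percent, y axis) in the finer germ cell clusters with more UMIs per cell than their library's median and at least 10 cells in each library (x axis, by class and cluster number), with exact 95% counting intervals. Rpl10l and Rpl39l reach their plateau by cluster 9, Rpl22l1 reaches its own later, and in ES-like clusters 3 and 18 the WT shares are 11.8% and 34.0% for Rpl22l1 and 2.18% and 2.51% for Rps27l.

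The single LZ-like cells were not alike. Among those with at least 5 UMIs of the Rpl39 pair, the median Rpl39l share was 87.5% over 87 WT cells, 80% over 98 KO cells and 64.3% over 83 KI cells. Their 10th percentile was 20%, 21% and 12.9%, and their 75th percentile 100%, 100% and 98%. Some 40.2% of these WT cells, 39.8% of KO cells and 24.1% of KI cells held the paralog alone.

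Grouping these cells by their own Rpl39l share showed where the other pairs stood in the same cells. In cells under 50% for Rpl39l (23 WT, 30 KO, 34 KI), Rpl10l made up 4.55% of its pair for WT (0.555 to 15.5), 20.3% for KO (11.8 to 31.2) and 8.82% for KI (4.64 to 14.9). In cells between 50% and 90% (21, 25 and 23 cells) it made up 33.3%, 36.7% and 34.7%. The Rpl39l share of each group is fixed by the grouping and is no result. In cells at 90% or over (43, 43 and 26 cells) Rpl10l made up 96.9% (92.2 to 99.1), 90.6% (84.4 to 94.9) and 82.7% (76.5 to 87.9). The level of the paralog differed too. Rpl10l had 2 of 226071 UMIs in WT cells of the first group and 124 of 922116 in those of the last. For KO these were 15 of 409777 and 125 of 857990, and for KI 12 of 627005 and 153 of 1092740. SP markers summed to 836, 925 and 936 CPM in the first group and to 4466, 4741 and 4673 CPM in the last, and SG markers to 779, 1110 and 879 against 142, 223 and 362 CPM.

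The Rpl22l1 share was 21.2%, 18% and 22.7% in cells under 50% for Rpl39l, 33.2%, 35.1% and 28.2% in those between 50% and 90%, and 24.3%, 27.6% and 19.3% in cells at 90% or over. It was thus highest in the middle group in each library, though its counting interval there overlapped that of another group each time. The Rps27l share went up with the Rpl39l share by less than that of Rpl10l, from 42.2% (37.5 to 46.9), 40.6% (37.1 to 44.2) and 43.4% (40.6 to 46.2) in the first group to 61.0% (58.1 to 63.9), 52.5% (49.3 to 55.7) and 53.1% (50.3 to 56.0) in the last.

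**Figure D3:**
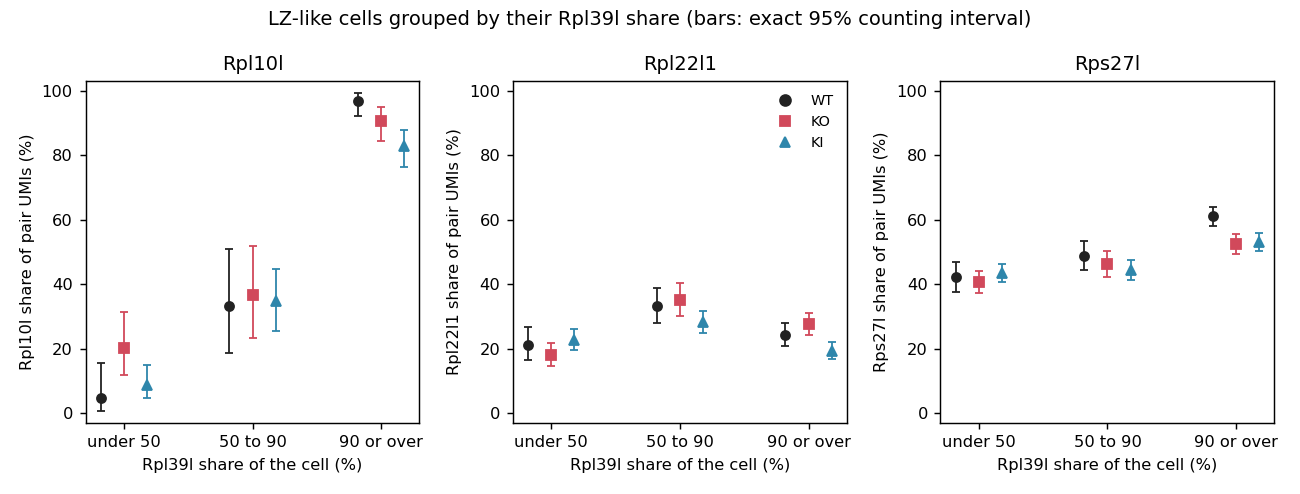
Paralog share of pair UMIs (percent, y axis) for Rpl10l, Rpl22l1 and Rps27l in LZ-like cells grouped by the cell's own Rpl39l share (x axis), with exact 95% counting intervals; cells with under 5 UMIs of the Rpl39 pair are left out. Rpl10l goes from at most 20.3% to at least 82.7% across the groups, and Rpl22l1 stays between 18% and 35.1%.

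The Rpl22 pair changed later. Rpl22l1 made up 12.5% of the pair in SG-like cells of WT (9.21 to 16.4), 16.3% in KO (13.1 to 19.8) and 17.1% in KI (14.4 to 20). It made up 27.7%, 30% and 25.9% in LZ-like cluster 19, and 55.6% (54.0 to 57.2), 57.7% (56.3 to 59.0) and 55.1% (53.8 to 56.5) in cluster 9, in which the X-linked pairs had already switched. In SP-like cluster 2 of the finer clustering, which is led by genes that include the cyclins Ccna1 and Ccnb1, it reached 84.1%, 87.7% and 85.8%.

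Here parent and paralog moved in opposite directions. Rpl22 went from 1186 CPM in SG-like WT cells to 567 in LZ-like cluster 19, 278 in cluster 9 and 124 in SP-like cluster 2. Rpl22l1 went from 169 to 217, 348 and 654 CPM over the same clusters. KO showed the same order for both genes, and KI did for Rpl22, while its Rpl22l1 stood at 232 CPM in SG-like cells and 218 in LZ-like cluster 19. Over the whole classes, SP-like against LZ-like, the log2 difference of Rpl22 was -1.94 for WT, -2.18 for KO and -2.16 for KI, and that of Rpl22l1 was 1.43, 1.14 and 1.28. In the RS-like class of the main clustering the share was 76.5% for WT (75.5 to 77.6), 77.3% for KO (75.8 to 78.7) and 77.2% for KI (75.7 to 78.7). RS-like cells of the finer clustering had 79.8%, 82.2% and 81%, which is nearer to SP-like cluster 2 of that clustering and below it.

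The Rps27 pair ran another course. Rps27l, a gene known as a target of p53, made up 38.4% of the pair in SG-like cells of WT (33.9 to 43.1), 39.7% in KO (35.5 to 44.1) and 40.9% in KI (37.5 to 44.3). It reached 55.3% (53.2 to 57.4), 48.5% (46.5 to 50.5) and 48.8% (46.9 to 50.7) in LZ-like cluster 19, and was 30.1%, 29.2% and 28.6% in cluster 9. Over the classes it went from 52.3%, 47.0% and 47.0% in LZ-like cells to 23.9% (23.3 to 24.4), 24.7% (24.2 to 25.2) and 24.3% (23.8 to 24.8) in SP-like cells and to 17.7%, 18.9% and 17.9% in RS-like cells.

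On the CPM scale the level of the paralog differed most. Rps27l stood at 779 CPM in LZ-like cells of WT, 698 in KO and 694 in KI, at 264, 234 and 232 in SP-like cells and at 157, 143 and 140 in RS-like cells. Rps27 stayed between 710 and 844 CPM in LZ-like and SP-like cells of the 3 libraries. Since most reads of Rps27 could also come from Rps27rt, its level may be understated.

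Of the 8 members, 2 were past 2-fold higher and 4 past 2-fold lower in SP-like than in LZ-like cells in each library. The higher ones were Rpl39l and Rpl22l1, and the lower ones Rpl10, Rpl39, Rpl22 and Rps27l. Among all genes of at least 20 CPM on average, past 2-fold higher were 22.3% (WT), 21.3% (KO) and 22.1% (KI), and past 2-fold lower 37.4%, 36% and 36.7%. Differences of this size were therefore common between these classes. With marker gates, pachytene against LZ, Rpl39l lay within 2-fold, at 0.85, 0.78 and 0.96 on the log2 scale, and Rpl22l1 was past 2-fold for WT alone, at 1.12, 0.68 and 0.87. TMM scaling moved every difference between these classes up by about 0.8 on the log2 scale. Rps27l then lay within 2-fold, at -0.74, -0.76 and -0.77, Rps27 stood at 1.06, 0.67 and 0.69, which turned its direction in KO and KI, and Rpl10l at 0.95, 0.94 and 1.40. Rpl10 lay at -4.95, -4.71 and -4.84 on the log2(CPM + 1) scale, and Rpl10l, within 2-fold, at 0.13, 0.13 and 0.60.

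**Figure D4:**
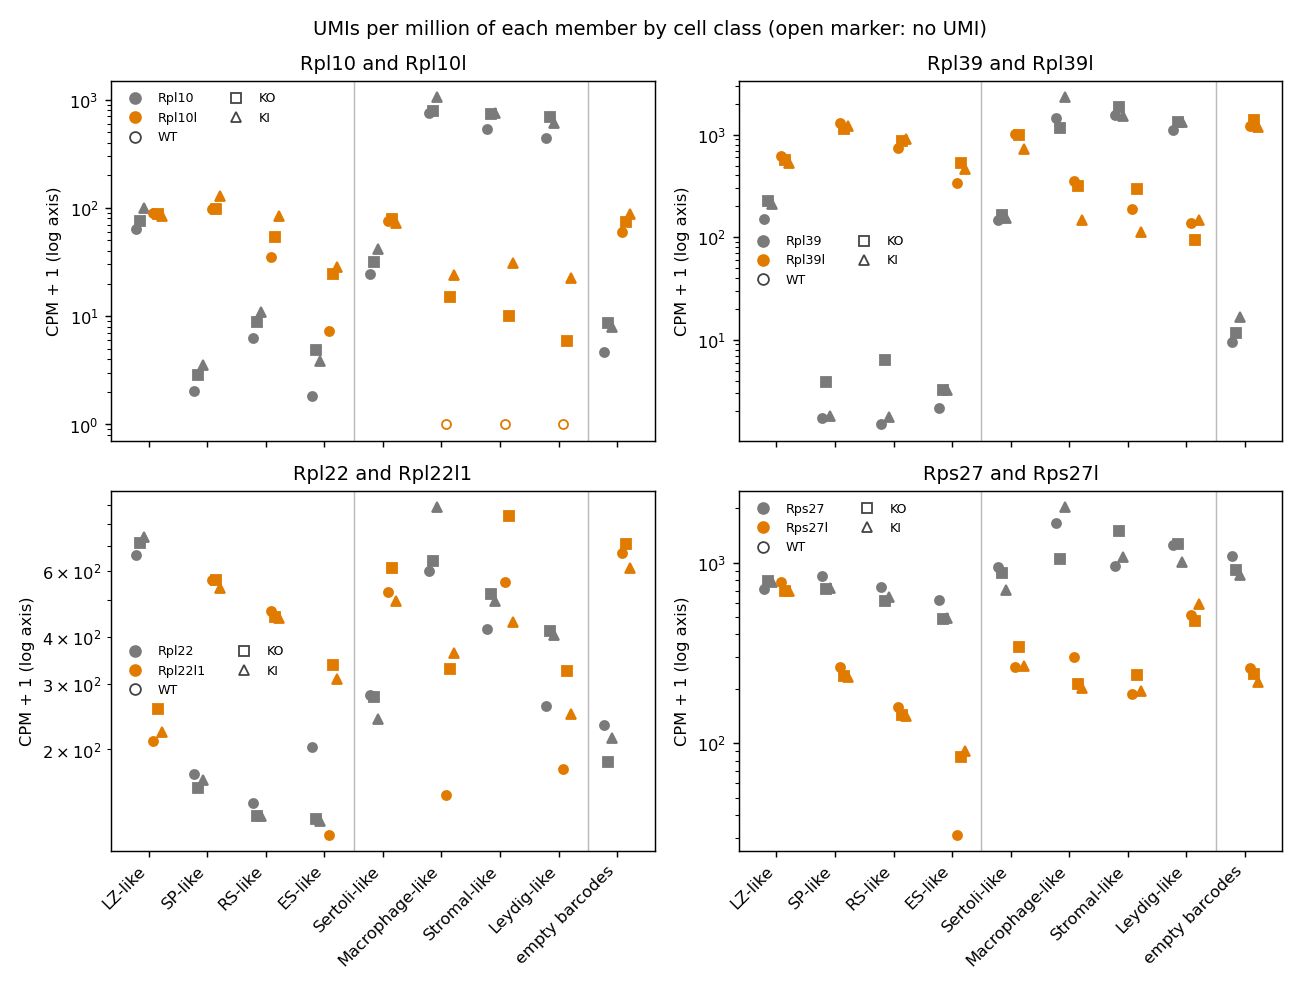
CPM plus 1 (log axis) of each parent (grey) and paralog (orange) in each cell class and in empty barcodes, for WT (circles), KO (squares) and KI (triangles); open markers had no UMI. Rpl10 and Rpl39 are under 4 CPM in SP-like cells and over 400 CPM in Macrophage-like, Stromal-like and Leydig-like cells, while Rpl39l is, among the named classes, highest in SP-like cells.

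In WT elongating spermatids the autosomal pairs changed again. ES-like cluster 21 of the finer clustering had a Rpl22l1 share of 74.9% for WT, 74.1% for KO and 73.7% for KI. This was near that of the RS-like class of the main clustering. In ES-like cluster 5, with 322 WT, 233 KO and 90 KI cells, it was 64.6% (62.3 to 66.9), 71.4% (69.4 to 73.4) and 71.6% (69.0 to 74.0). Among clusters mostly of WT cells the share was 54.2% (48.1 to 60.2) in cluster 6, 34.0% (31.1 to 37.0) in cluster 18, 14.2% (11.9 to 16.7) in cluster 11 and 11.8% (9.96 to 13.8) in cluster 3. Clusters 3, 11 and 18 were led by protamine or transition protein genes, which package the sperm genome. Across them Rpl22 stood at 245, 302 and 196 CPM and Rpl22l1 at 32.6, 49.9 and 101 CPM, against 140 and 419 CPM in cluster 21. The Rps27l share in cluster 5 was 6.02% for WT (5.22 to 6.89), 13.9% for KO (12.5 to 15.3) and 15.2% for KI (13.5 to 17.0). In WT cells it was 15.6% in cluster 21, 21.9% in cluster 6, 11.9% in cluster 11, 2.51% in cluster 18 and 2.18% in cluster 3. Rps27l had 14.6 CPM in cluster 3 and 24.6 in cluster 18, and Rps27 had 657 and 954.

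In cluster 5 both paralog shares were thus lower in WT than in the mutants, with counting intervals that did not overlap. With 1 library per genotype this is no test of genotype, and the parts of free RNA and of stage were not tested. Of the cells of cluster 6, 596 were from WT and 1 from each mutant, cluster 11 had 512 WT cells and no KO or KI cell, and cluster 18 had 299, 12 and 10 cells. In cluster 3, which had 508 WT, 153 KO and 56 KI cells, the KO share of Rpl22l1 was 77.2% (71.2 to 82.5), the KI share 60.0% (43.3 to 75.1), and that of empty barcodes was 79.4% in KO and 74.1% in KI. The Rps27l share there was 21.4% in KO and 17.7% in KI, and 21.0% and 20.4% in empty barcodes. Rpl39l kept 99.9% of its pair in WT cells of cluster 3 and 99.7% in cluster 11, so the X-linked parent did not come back there. Over the whole ES-like class, 2 of the 5 members of at least 20 CPM, Rpl22l1 and Rps27l, were past 2-fold higher in KO and in KI than in WT, as were 54.9% and 54% of all genes. With TMM scaling both lay within 0.1 of WT on the log2 scale. Of the 16 main clusters, the ES-like class held mostly 4 and 5 in WT and 9 and 5 in the mutants.

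Macrophage-like, Stromal-like and Leydig-like cells used the parents of the X-linked pairs. Rpl10 stood between 444 and 1046 CPM and Rpl39 between 1117 and 2307 CPM across these classes and libraries. No Rpl10l UMI was seen in the 12 Macrophage-like, 26 Stromal-like and 15 Leydig-like WT cells, which allows a share of up to 21.8%, 14.8% and 6.16% (exact intervals). The Rpl10l share was at most 3.81% in KO and KI. The Rpl39l share lay between 5.96% and 21.4%, and at 93.3 to 350 CPM the gene was below its level in empty barcodes of the same library, 1219 CPM for WT, 1396 for KO and 1182 for KI. In Leydig-like cells free RNA up to the limit set by protamine and Tnp2 UMIs would give 159 Rpl39l UMIs for WT, where 18 were seen, 11.7 of 19 for KO and 6.22 of 61 for KI.

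UMIs of the autosomal paralogs were also seen in somatic cells. Rpl22l1 made up 40.4% of its pair in Leydig-like cells of WT (27.6 to 54.2), 44.0% in KO and 38.0% in KI. In Stromal-like cells it made up 57.1% for WT (41.0 to 72.3, 42 UMIs), 61.7% for KO (53.4 to 69.6) and 46.8% for KI (37.9 to 55.9). In Macrophage-like cells it made up 20%, 33.8% and 29.0%. Rps27l made up 29.1%, 27.3% and 36.9% of its pair in Leydig-like cells and at most 16.9% in Macrophage-like and Stromal-like cells. At 476 to 590 CPM in Leydig-like cells, Rps27l was above its 217 to 261 CPM in empty barcodes, while its 186 to 300 CPM in Macrophage-like and Stromal-like cells was near that level. Rpl22l1 had 667 CPM in empty barcodes of WT, 707 of KO and 611 of KI. Its levels in Leydig-like cells (176, 324 and 248 CPM) and Macrophage-like cells (150, 326 and 362 CPM) were below that, and of Stromal-like cells (559, 838 and 438 CPM) only those of KO were above. At the limit set by protamine and Tnp2 UMIs, free RNA would give 87.2 Rpl22l1 UMIs in Leydig-like WT cells, where 23 were seen, 5.94 of 66 for KO and, below the number seen, 3.21 for KI. In Stromal-like WT cells it would give 11.1 of 24 Rpl22l1 and 3.87 of 18 Rpl22 UMIs.

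Sertoli-like cells, the somatic nurse cells of the tubule, gave Rpl10l and Rpl39l shares between those of the other somatic classes and of SP-like cells. Their leading genes, among them Cst9, Cst12, Aard and Defb36, fit the label. All 12 Sertoli markers were detected in each library, as they also were in LZ-like and SP-like cells. Of the 504 cells, marker gates placed 251 in the Sertoli gate, 97 in the pachytene gate and 74 in the ES gate. The Rpl10l share was 75.8% for WT (63.3 to 85.8, 62 UMIs), 71.8% for KO (62.7 to 79.7, 117 UMIs) and 63.6% for KI (49.6 to 76.2, 55 UMIs). The Rpl39l share was 87.6%, 85.6% and 82.6%, the Rpl22l1 share 65.4%, 68.9% and 67.4%, and the Rps27l share 21.8%, 28.1% and 27.5%.

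These cells had few UMIs, a median of 0.316 of their library's, and carried germ cell RNA: SP markers summed to 3559 CPM for WT, 3822 for KO and 3213 for KI, beside 3904, 3383 and 4601 CPM of the Sertoli markers. Protamine and Tnp2 UMIs alone would allow up to 100% free RNA in WT and KI and 54.5% in KO. The WT cells had 647 UMIs of Rpl39l where free RNA alone would give 772, and 47 of Rpl10l where it would give 37.6. They had 92 UMIs of Rpl39 where free RNA would give 5.38, and 15 of Rpl10 where it would give 2.30. Of these 4 genes in WT, the parents were well above the free RNA level. The part of free RNA in the Rpl10l and Rpl39l shares of WT Sertoli-like cells was not tested. With cells called by UMI total alone these shares were 100% and 94.7%. The narrower Sertoli marker gate, with 95, 127 and 56 cells, gave Rpl10l shares of 20%, 55.6% and 26.1% and Rpl39l shares of 65.5%, 74.4% and 69.9%, beside 65.1%, 57.5% and 53.8% for Rpl10l and 84.1%, 73.9% and 73.7% for Rpl39l in the LZ gate. The Rpl10l shares of the clusters were above those of LZ-like cells and those of the Sertoli gate below those of the LZ gate, so this order turned. In KO the shares of the gates lay close together, and few UMIs of the Rpl10 pair limit the Sertoli gate.

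SP-like minus Sertoli-like cells of WT differed in share by 23.1 percentage points for Rpl10l (95% Newcombe interval 14.2 to 35.1), by 12.4 for Rpl39l (10.2 to 15), by 11.5 for Rpl22l1 (7.40 to 15.7) and by 2.07 for Rps27l (-1.04 to 4.90). The odds of paralog over parent were past 2-fold for the first 2 pairs, with odds ratios of 29.5 and 250, and not for Rpl22l1 and Rps27l, with 1.76 and 1.12. For Rpl22l1 that call turned with marker gates, which gave 76.1% in SP-like and 46.2% in Sertoli-like cells, and at the finer clustering, with 82.8% and 63.0%. For Rps27l the gates turned the direction, with 23.8% and 32.6%. With cells called by UMI total alone the Rpl10l difference was -1.05, and with marker gates it was 78.5.

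KO and KI round spermatids are the comparison named by the study's question, and over the whole RS-like class the members' shares lay within 3 percentage points of WT. The Rpl10l share in RS-like cells differed from WT by 0.509 points in KO (-4.40 to 5.33) and by 2.73 in KI (-1.59 to 7.17), while in cluster 1 alone, on 50 to 65 UMIs a library, it was 46% for WT, 70.8% for KO and 60.4% for KI. Rpl22l1 differed by 0.739 (-1.04 to 2.49) and 0.688 (-1.18 to 2.51), and Rps27l by 1.15 (-0.237 to 2.56) and 0.165 (-1.24 to 1.61). Rpl39l differed by -0.547 in KO (-0.806 to -0.345) and by -0.020 in KI (-0.162 to 0.0844).

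The KO difference in the Rpl39 pair was the one in which the odds differed by over 2-fold, and it rests on few parent UMIs. With marker gates, at the finer clustering and without integration the odds in KI also differed from WT by over 2-fold, on 10 parent UMIs in each library with the gates. RS-like cells held 31 Rpl39 UMIs in KO against 5 in WT and 4 in KI, or 5.32, 0.494 and 0.784 CPM. SP-like cells of KO held 93 against 17 and 24, or 2.87, 0.716 and 0.824 CPM, a log2 ratio of CPM to WT of 2.00 (1.25 to 2.84). The KO cells of SP-like cluster 12 of the main clustering had 40 of those 93 UMIs in 168 cells. Empty barcodes had 10.6 CPM of Rpl39 in KO, 8.49 in WT and 15.5 in KI, above all these class levels. Of the 31 UMIs in RS-like KO cells, 18 were in cluster 1, at 15.3 CPM (9.08 to 24.2), an interval that holds the level of empty barcodes, and 13 in cluster 8, at 2.79 CPM. The part of free RNA was not tested. SP-like cells of KO also had erythroid markers at 32 CPM, against 0.548 in WT and 0.103 in KI, and Sertoli markers at 40.0 CPM, against 19.1 and 27.4. Whether the Rpl39 UMIs go with these markers was not tested. Rpl10 also leaned higher, with log2 ratios of 0.81 in KO (0.12 to 1.55) and 1.25 in KI (0.58 to 1.97) in SP-like cells, with 1.05 CPM for WT, 1.85 for KO and 2.51 for KI.

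Among the well-expressed members, the counts past 2-fold did not set them apart from all genes. In SP-like cells none of the 6 members of at least 20 CPM was past 2-fold in KO or KI, against 1.62% and 1.72% of all genes. In RS-like cells 1 of 6 was past 2-fold higher in KI, against 10.1% of all genes, and 0 of 6 in KO, against 7.97%. The one was Rpl10l, at 34.3 CPM for WT, 53.0 for KO and 83.1 for KI, and at 59.4, 73.8 and 86.1 CPM in empty barcodes. Its log2 ratio in KI was 1.25 on the CPM + 1 scale and 0.85 with TMM scaling, which is not past 2-fold. In RS-like cells SP markers summed to 1308 CPM for WT, 2042 for KO and 2135 for KI, and ES markers to 69030, 16840 and 11770. The part of the stage mix in this difference was not tested. Rps27 was the lowest of the well-expressed members in both mutants, at 728 CPM for WT, 615 for KO and 644 for KI in RS-like cells, which is a log2 ratio of -0.24 and -0.18 beside a median of 0.251 and 0.275 over all genes. Clusters 1 and 8 made up the RS-like class, and cluster 8 gave most of its UMIs in all 3 libraries. Without integration, an RS-like cluster held 2 WT, 417 KO and 139 KI cells, and a further RS-like cluster held 420 WT cells and no KO or KI cell.

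**Figure D5:**
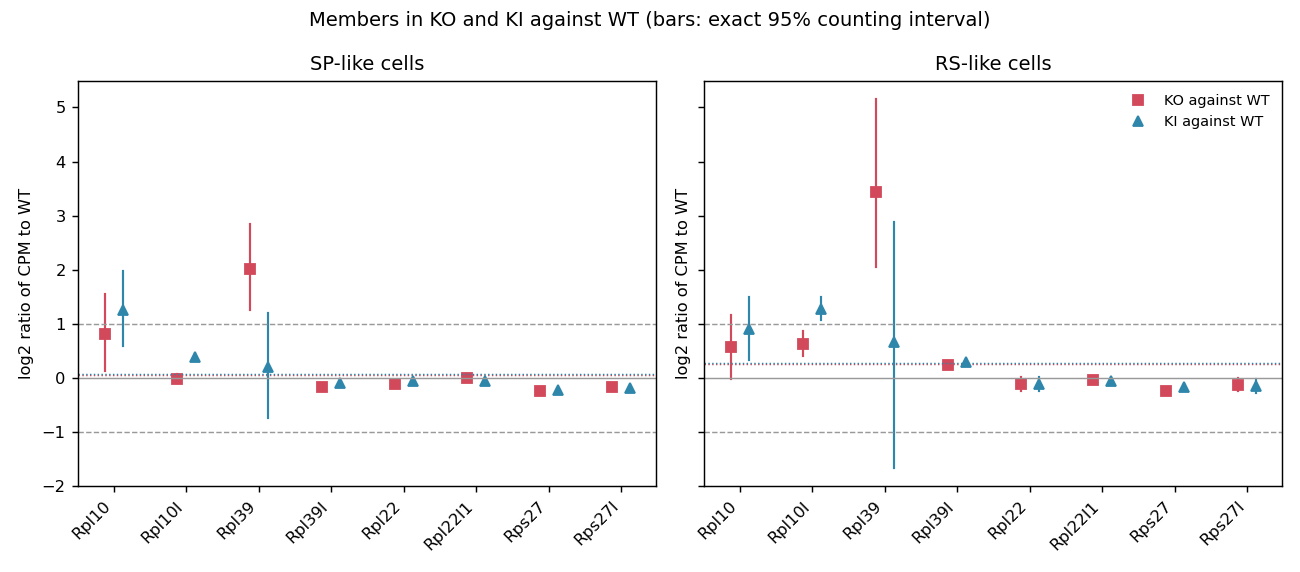
Log2 ratio of CPM to WT for each member (x axis) in KO (squares) and KI (triangles), in SP-like cells (left) and RS-like cells (right), with exact 95% counting intervals; dashed lines mark 2-fold and dotted lines the median over all genes of at least 20 CPM. Rpl39l and the Rpl22 and Rps27 pairs lie within 0.3 of 0, and the highest values are those of Rpl39 in KO, which has few UMIs, and of Rpl10l in RS-like cells of KI.

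In LZ-like cells the members of both mutants lay within 2-fold of WT. The log2 ratio of Rpl39 to WT there was 0.56 in KO and 0.46 in KI, and that of Rpl10 0.24 and 0.66, and the Rpl39l shares of the mutants lay below the WT interval. SG markers summed to 456 CPM for WT, 605 for KO and 673 for KI. At the protamine limit free RNA would give 270 of 1078 Rpl39l UMIs for WT, 130 of 1117 for KO and 64.7 of 1307 for KI. The parts of stage mix and free RNA were not tested. No member of the 8 was past 2-fold in KO or KI, against 1.8% and 2.02% of all genes, so this count does not set them apart.

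The other X-linked ribosomal protein genes followed Rpl10 and Rpl39. Rpl36a stood at 85.5 CPM in LZ-like and 0.211 CPM in SP-like cells of WT, and Rps4x at 19.6 and 0.379. Of the other autosomal paralogs, Rpl36al, the autosomal copy related to Rpl36a, stood at 73.3 CPM in LZ-like and 122 in SP-like cells, Rpl7l1 went from 73.3 to 27.4 CPM, and Rpl3l, a gene of muscle, had at most 2.31 CPM in any WT class. Of the 75 other cytosolic ribosomal protein genes, 0 of 74 with at least 20 CPM were past 2-fold higher and 12 past 2-fold lower in SP-like than in LZ-like WT cells, with a median log2 difference of -0.366 beside -0.476 over all genes. Over all genes, as above, 22.3% were higher and 37.4% lower. In KO and in KI, 0 of the 74 were higher and 18 lower. Between SP-like and Sertoli-like WT cells their median was -0.0191 beside 0.30 over all genes, the lowest were Rps4x at -4.98 and Rpl36a at -3.65, and the highest Rpl4 at 0.43 and Rpl7 at 0.41. Their summed level was 70410 CPM in LZ-like, 58730 in SP-like and 42990 in RS-like WT cells.

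Of 5 X-linked genes with an autosomal retrogene outside the ribosome (Pgk1, Pdha1, Cstf2, Utp14a and Cetn2), only Cstf2 reached 20 CPM on average in LZ-like and SP-like WT cells, through its level in the former. Pgk1, a glycolytic kinase, stood at 4.04 CPM in LZ-like and 2.19 in SP-like WT cells, and its retrogene Pgk2 at 52 and 203 CPM. Of the 5 retrogenes (Pgk2, Pdha2, Cstf2t, Utp14b and Cetn1), all of at least 20 CPM, 2 were past 2-fold higher and 1 past 2-fold lower in SP-like WT cells, with a median log2 difference of 0.0373 beside -0.476 over all genes, of which 22.3% were higher and 37.4% lower. The values ran from -1.19 for Cstf2t to 3.20 for Cetn1.

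Across 22 profiles of named classes and libraries, the genes most like each paralog on the log2(CPM + 1) scale were found among 10691 genes. For Rpl39l they were Srpk1, a kinase of splicing factors (r = 0.971), Psmc3ip, a meiotic recombination factor (r = 0.970), and Syce1, a protein of the synaptonemal complex (r = 0.967). For Rpl10l they were Dnah7c (r = 0.951), Snrpa1 (r = 0.940) and Sass6 (r = 0.938). For Rps27l they were Ndufab1 (r = 0.934), Hint1 (r = 0.932) and Mrpl4 (r = 0.932). For Rpl22l1 the nearest, Kank3 (r = 0.861), Herc6 (r = 0.841) and Mxra8 (r = 0.834), were less like it than those of the other paralogs. The profiles share 3 libraries and their free RNA, so these values only describe likeness.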

How the data were processed

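The authors aligned reads to mm10 (GRCm38) and deposited raw UMI counts per gene and barcode for 3 libraries. The submitters' processing notes name Cell Ranger 2.1.1 and the file headers Cell Ranger 4, and 3′ chemistry counts transcripts without regard to gene length. All 6794880 listed barcodes are in the files, so cells were called here: barcodes above a UMI total (8187, 8847 and 14178 in WT, KO and KI, set from 3000 expected cells), or differing from the empty-barcode profile (ranks 45000 to 90000) at a false discovery rate of 0.01 with at least 500 UMIs. At most 20000 barcodes per library were compared, which in KO left out part of the 35721 candidates. Cells with at least 500 genes and at most 10% mitochondrial UMIs were kept. Libraries were integrated as in the study (Seurat 5.3.0, sctransform 0.4.2, 2000 genes, 100 components) with the 3 members among these genes, Rpl10, Rpl22 and Rpl39, removed, and clustered by Leiden (leidenalg 0.10.2, resolution 0.3, or 1.0 for finer clusters). Clusters were named from marker lists if at least 3 markers were above the other cells, the score led the next by 0.1 and the 10 leading genes held no more markers of other classes than of their own. Clusters low in UMIs or led by a haemoglobin gene also needed an own marker among these genes. Scrublet marked 2.47% of WT, 0.148% of KO and 0.892% of KI cells, too few in KO, so an alternative removed the 328, 154 and 25 highest scores instead.

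Within each library, UMIs of all cells in a class were added up. Shares have exact Clopper-Pearson, levels exact Poisson and share differences Newcombe intervals, all at 95% and for counting error only, since UMIs count molecules but 1 library per genotype has no replicate. Ratios used CPM + 1 and were called at 2-fold, read against all genes of at least 20 CPM. A difference in share was called where the odds differed 2-fold. The computations were tested on simulated data. The members and gene lists were chosen with earlier results of these data known. Cstf2, Cstf2t and Cetn1 were named after their values were seen. Named genes were the 8 members, the 3 genes most like each paralog (at least 50 CPM in 1 profile of at least 20 cells), other X-linked and paralogous ribosomal protein genes, the 2 highest and 2 lowest of the cytosolic list in SP-like against Sertoli-like WT cells, and Pgk1 and Pgk2. Rps4l was not analysed here. Alternatives were other cell calls, doublet removal, clusterings, gates, free RNA subtraction, cell means, scaling and pseudocounts. Leaving out shared barcodes, subtracting free RNA up to the protamine limit, adding copies of the parents and restricting gates to the LZ-like cluster were chosen after seeing the data.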

Additional observations from a re-analysis of the deposited data

How the results depend on the processing

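Over the 60 shares of the pairs in LZ-like, SP-like, RS-like, ES-like and Sertoli-like cells of the 3 libraries, the counting interval was passed by 42 with marker gates, 35 without integration, 31 at the finer clustering, 23 with 10% free RNA subtracted, 21 of 53 as means of single cells, 19 with cells called by UMI total alone, 5 without the highest doublet scores and 1 with over 1000 genes per cell. The LZ-like WT share of Rpl10l, 58.6% as reported, moved most without integration (29.7%) and as a mean of single cells (80%), and the KI share, 45.8%, without integration (23.2%) and at the finer clustering (65.1%), while the SP-like shares of Rpl10l and Rpl39l stayed at or above 97% in these alternatives. Differences in share between KO or KI and WT round spermatids, and between SP-like and Sertoli-like WT cells, are given in percentage points. With UMI total alone, the SP-like minus Sertoli-like difference was -1.05 for Rpl10l (23.1 as reported, so its direction turned), 5.3 for Rpl39l and 7.28 for Rpl22l1, and the KO difference of Rpl39l was -0.29. With marker gates the SP-like minus Sertoli-like differences were 78.5, 34.2, 29.9 and -8.77 for Rpl10l, Rpl39l, Rpl22l1 and Rps27l. The gates gave KO differences of -1.6 for Rpl22l1 and -1.9 for Rps27l, and KI differences of -0.234 for Rpl39l (its odds then past 2-fold), -1.75 for Rpl22l1 and -3 for Rps27l. With free RNA subtracted up to the protamine limit, the SP-like minus Sertoli-like differences were 56.7 for Rpl10l, 100 for Rpl39l, 77 for Rpl22l1 and -75.8 for Rps27l. In Sertoli-like WT cells this limit was 100%, and free RNA would give 772 Rpl39l UMIs (647 seen), 423 Rpl22l1 (332 seen) and 692 Rps27 (596 seen). Counts under 0 were set to 0, which left Sertoli-like shares of 0% for Rpl39l and Rpl22l1 and 100% for Rps27l. The differences of these pairs therefore only describe the subtraction. At the finer clustering the KO difference of Rpl39l was -0.27 and the Sertoli-like difference of Rpl22l1 19.8, and as a mean of single cells the latter was 4.94. Without integration the KO difference of Rps27l was -1.45, and the KI differences were -1.78 for Rps27l and -0.184 for Rpl39l. The causes were not tested. With TMM scaling, log2 ratios in ES-like cells turned for Rpl10 (-0.0394 in KO and -0.369 in KI), for Rps27l in KO (-0.0262) and for Rpl22l1 in KI (-0.0669). The protamine limit was not run for RS-like and ES-like cells, nor single-cell means with fewer than 10 cells. No paired analysis was possible because each genotype is 1 library and the labels carry no replicate numbers. Few UMIs limit the Rpl10 pair and the somatic classes, and no value has a replicate.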
